A study of Mus musculus with 9 samples.

Results

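Mueller glia and the retinal stress response were followed through 10 genes in whole eyes of 3 inbred mouse strains. Of these, 5 are genes of the resting glial cell (Glul, Slc1a3, Aqp4, Kcnj10 and Abca8a) and 5 are genes that mark a stressed or reactive retina (Gfap, Vim, Edn2, Bcl3 and Fgf2). They were taken by gene symbol from tables that list 13089 genes, and all 10 were found. The eyes came from wild-type female mice of 4 weeks, of strain A/J, strain BALB/c or strain C57BL/6J. C57BL/6J is a pigmented strain, the other 2 are albino, and the stated design concerns strains whose retinas degenerate at different rates. Poly(A) RNA was sequenced from 3 libraries per strain, 9 in all, each made from RNA pooled over 5 mice and named here by strain and number. Whether a strain's libraries were made from separate pools is not stated, so p-values reflect variation among libraries that may be technical.

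Mueller glia span the neural retina and serve its neurons. They take up glutamate, turn it into glutamine and carry potassium and water away from active neurons. When photoreceptors are damaged, the glia respond with gliosis, in which intermediate filament proteins accumulate and cytokine, endothelin and growth factor signalling pass between photoreceptors and glia. Because whole eyes were sequenced, lens, cornea, muscle, the stump of the optic nerve and other tissues contributed RNA, and fewer cells of a type cannot be told apart from less RNA per cell.

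Expression is given as deposited by the authors and was taken as RPKM, a read count scaled to the gene's length and to the library's mapped reads. The tables name no unit, so this was inferred from the values. Tests used limma across the 12920 genes that reached 1 RPKM in at least 3 libraries, on log2(scaled RPKM + 0.5). This scale understates changes of low genes. A gene was called, and is said to have risen or fallen, at a Benjamini-Hochberg adjusted p under 0.05. All 10 genes passed the filter. Edn2 was under 1 RPKM in every BALB/c library, and Fgf2 was under 1 RPKM in A/J 1 and A/J 2.

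Not all libraries of a strain were alike. On the first principal component, with 49.1% of the variance, A/J 3 lay at 7.30, while A/J 1 was at -42.4 and A/J 2 at -51.4. C57BL/6J 3 lay at 56.4, while C57BL/6J 1 and C57BL/6J 2 lay at -7.80 and 8.20, and the BALB/c libraries lay from 2.6 to 14.8. A gene's deviation in a library also ran with the GC content of its transcript, with Spearman correlations across genes of -0.65 and -0.72 in A/J 1 and A/J 2 and of 0.46 in A/J 3. In BALB/c these correlations were 0.09 to 0.56, and in C57BL/6J they were -0.30 to 0.39. On the log2 scale, the within-strain SD had a median over genes of 0.263 in A/J and 0.102 in BALB/c, against 0.246 in C57BL/6J.

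Some Mueller markers that are not among the 10 genes were abundant in every strain. The Mueller marker Rlbp1, the retinaldehyde-binding protein that pigment epithelium also makes, averaged 289.6 ± 28.3 RPKM in A/J and 281 ± 6.98 RPKM in BALB/c, against 295 ± 19.3 RPKM in C57BL/6J (SD, n = 3 each). Dkk3, a secreted protein abundant in these cells, averaged 353 ± 7.06, 298 ± 8.14 and 314 ± 23.9 RPKM in the same order of strains. All 24 genes of a Mueller identity list were found and tested, and none was called in any of the 3 comparisons. Of all genes, 2.69% were called in A/J minus C57BL/6J, 3.09% in BALB/c minus C57BL/6J and 2.48% in A/J minus BALB/c. In that order, log2 changes of the 24 genes spanned -1.25 to 0.75, -0.49 to 0.35 and -0.77 to 0.83. The list's 2 most abundant genes were Clu and Apoe, a chaperone and a lipid carrier that other eye tissues also make. Their means were 989.7 ± 94.2 and 857 ± 56.4 RPKM in A/J and 844 ± 44.5 and 872 ± 56.7 RPKM in BALB/c, against 815 ± 197 and 1190.4 ± 23.5 RPKM in C57BL/6J.

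The 10 genes covered the range of expression in the eye. Glul and Vim stood at or above the 98.5th percentile of all listed genes in each strain. Slc1a3 stood between the 81.1st and 87.6th percentile and Gfap between the 71.5th and 87.4th. At the low end, Fgf2 was at the 1.88th percentile in A/J, the 13.5th in BALB/c and the 8.60th in C57BL/6J. Edn2 was at the 35.3rd percentile in A/J, the 2.31st in BALB/c and the 11.6th in C57BL/6J, the widest span of ranks among the 10.

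**Figure D1:**
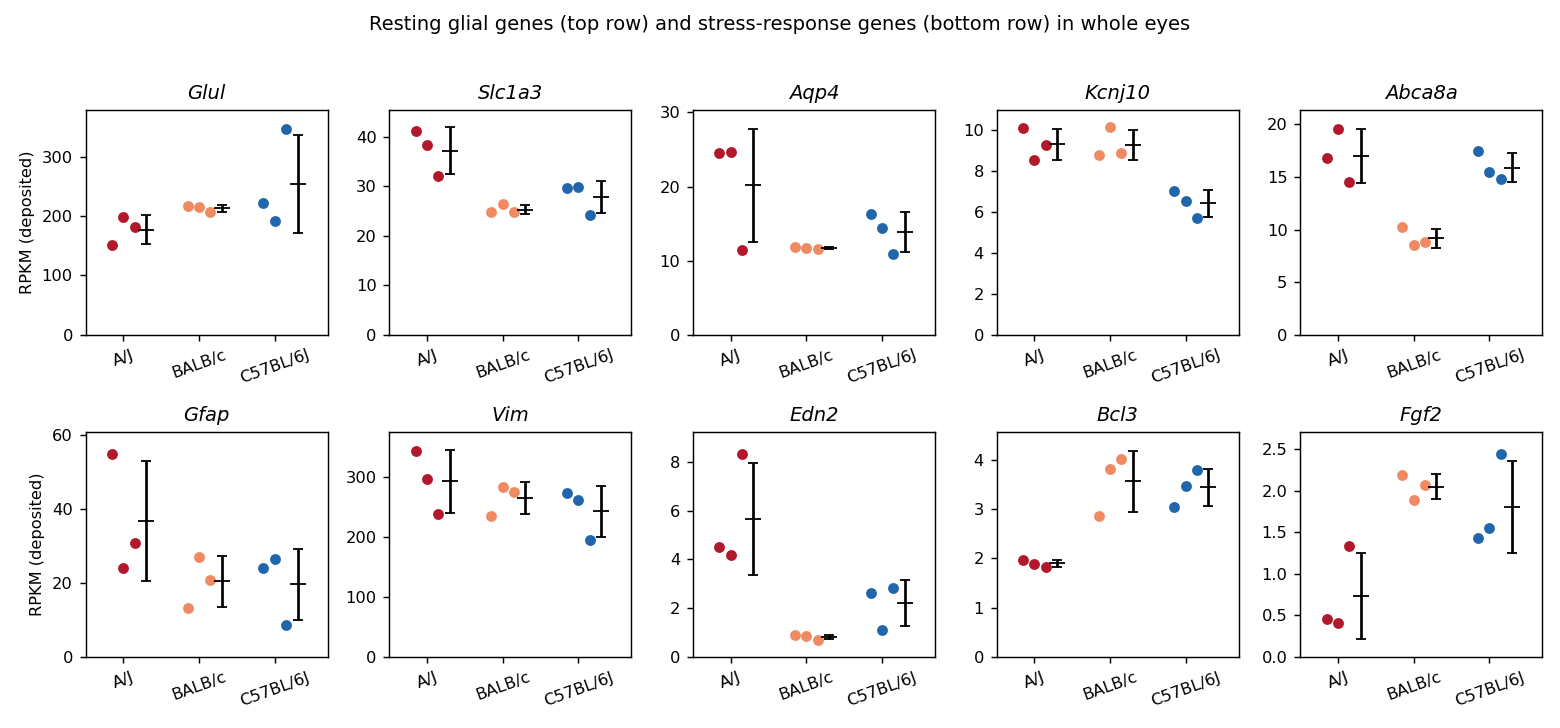
Deposited RPKM of each of the 10 genes, resting glial genes in the top row and stress-response genes in the bottom row, by strain (A/J, then BALB/c, then C57BL/6J). Each coloured point is 1 library in the order 1 to 3, and the bar beside the points is the mean with its SD (n = 3). The strains do not overlap for Edn2, where the A/J libraries lie at 4.16 to 8.31 RPKM, the BALB/c libraries at 0.71 to 0.89 and the C57BL/6J libraries at 1.11 to 2.83.

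Between A/J and BALB/c, the 2 albino strains, 3 of the 10 genes were called, where 2.48% of all genes tested were called. Edn2 and Abca8a rose in A/J, where 0.573% of all genes rose, and Bcl3 fell, where 1.90% of all genes fell. Libraries of the 2 strains did not overlap for 6 of the 10 genes, against 33.1% of all genes tested. Between A/J and C57BL/6J none of the 10 was called by limma, where 2.69% of all genes were (1.08% higher and 1.62% lower in A/J), and 5 had an unadjusted p under 0.05, as had 17.5% of all genes. Libraries did not overlap for 5 of the 10, against 16.3% of all genes. Between BALB/c and C57BL/6J none was called by limma, where 3.09% of all genes were (1.93% higher and 1.15% lower in BALB/c). Of the 10, 3 had an unadjusted p under 0.05, as had 13.8% of all genes, and 3 did not overlap, against 33.4% of all genes. The median log2 change of the 10 genes was 0.45 for A/J minus C57BL/6J, 0.12 for BALB/c minus C57BL/6J and 0.27 for A/J minus BALB/c, and the median of all genes was -0.01 in each. The 3 comparisons use the same 9 libraries, so each strain enters 2 of them. The 10 genes were chosen with earlier results of these data known. The shares beside those of all genes therefore only describe these 10 and test nothing about Mueller glia.

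**Figure D2:**
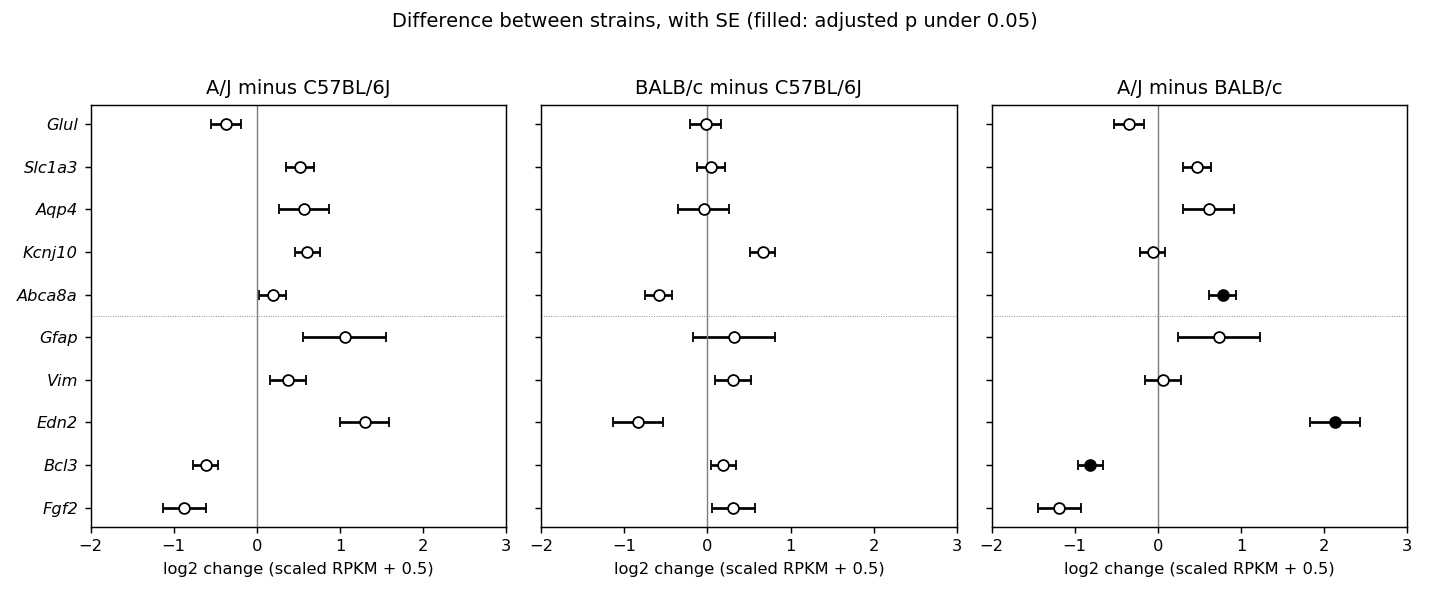
Log2 change with its standard error, from limma, for each of the 10 genes in the 3 comparisons between strains; the dotted line parts resting genes above from stress-response genes below, and filled points are called. The filled points are Abca8a at 0.78, Edn2 at 2.13 and Bcl3 at -0.81, all for A/J minus BALB/c.

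Promoter windows from RefSeq (build GRCm38.p6, from 250 bases before to 50 bases after the annotated start) are shown for the 2 stress-response genes that differed between A/J and BALB/c, Edn2 and Bcl3, and for the 2 members whose window holds the letters TTCNNNGAA, a core read by STAT factors, Gfap and Slc1a3. The Edn2 window is chr4:120160956-120161255 on the plus strand, and the others lie on the minus strand, at chr7:19822706-19823005 for Bcl3, chr11:102897151-102897450 for Gfap and chr15:8710758-8711057 for Slc1a3. Each is printed 5′ to 3′ along its gene, with capitals for matches to TTCNNNGAA or to an NF-kB-like pattern (GGG, any 5 bases, CC), each searched on both strands.
Edn2: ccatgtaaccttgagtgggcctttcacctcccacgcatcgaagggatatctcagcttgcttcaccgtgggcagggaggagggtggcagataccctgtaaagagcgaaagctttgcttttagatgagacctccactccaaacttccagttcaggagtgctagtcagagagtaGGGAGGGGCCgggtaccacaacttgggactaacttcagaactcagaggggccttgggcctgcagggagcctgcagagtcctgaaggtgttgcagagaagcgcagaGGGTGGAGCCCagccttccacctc
Bcl3: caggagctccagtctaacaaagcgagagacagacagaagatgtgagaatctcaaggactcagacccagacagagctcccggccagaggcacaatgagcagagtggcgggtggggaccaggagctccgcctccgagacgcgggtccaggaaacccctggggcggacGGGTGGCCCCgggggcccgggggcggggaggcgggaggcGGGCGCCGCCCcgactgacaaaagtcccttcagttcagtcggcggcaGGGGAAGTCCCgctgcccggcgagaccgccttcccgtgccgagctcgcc
Gfap: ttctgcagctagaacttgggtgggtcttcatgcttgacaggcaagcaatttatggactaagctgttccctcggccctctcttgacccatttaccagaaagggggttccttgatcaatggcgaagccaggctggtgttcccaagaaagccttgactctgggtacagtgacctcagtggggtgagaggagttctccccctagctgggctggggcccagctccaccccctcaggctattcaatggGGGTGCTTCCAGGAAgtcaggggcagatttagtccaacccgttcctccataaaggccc
Slc1a3: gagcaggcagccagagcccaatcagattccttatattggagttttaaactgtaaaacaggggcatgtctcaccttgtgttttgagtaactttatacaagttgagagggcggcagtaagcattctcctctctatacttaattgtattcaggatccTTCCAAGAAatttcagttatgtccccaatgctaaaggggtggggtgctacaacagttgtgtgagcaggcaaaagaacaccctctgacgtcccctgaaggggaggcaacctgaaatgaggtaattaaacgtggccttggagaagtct
TTCNNNGAA reads the same on both strands and was found in 8.30% of 32851 promoter windows, and the NF-kB-like pattern in 50.8%. The Edn2 window holds no TTCNNNGAA and 3 matches to the NF-kB-like pattern, and the Bcl3 window holds none and 5, counting matches that overlap each other. In Gfap the TTCNNNGAA match begins 2 bases before the start and overlaps the window's single NF-kB-like match. In Slc1a3 it begins 96 bases before the start, with no NF-kB-like match. Among the other members whose windows were read, Kcnj10 holds 4 NF-kB-like matches and Vim 3, and Glul, Abca8a and Fgf2 hold neither set of letters. A match of letters describes the sequence and is not a binding site.

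Glul makes glutamine synthetase, the enzyme that turns glutamate taken up by Mueller glia into glutamine. It was at 151, 199 and 181 RPKM in A/J, at 218, 216 and 207 RPKM in BALB/c and at 222, 191 and 348 RPKM in C57BL/6J. C57BL/6J 3 held the highest value of all 9 libraries, and the A/J libraries lay below those of BALB/c without overlap. The differences were not called: the log2 change was -0.35 (SE 0.18, adjusted p = 0.29) for A/J minus BALB/c, -0.37 (SE 0.18, adjusted p = 0.31) for A/J minus C57BL/6J and -0.02 (SE 0.18, adjusted p = 0.98) for BALB/c minus C57BL/6J. Without C57BL/6J 3 the A/J minus C57BL/6J value was -0.18 and the BALB/c minus C57BL/6J value 0.17. The A/J minus BALB/c value was called in 1 of the 20 other ways of processing (adjusted p = 0.029). Of the 31-base stretches in Glul transcripts, 20.4% also occur at other annotated loci, mainly the pseudogene Glns-ps1, so its reads may be split.

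Slc1a3 encodes GLAST, the main glutamate transporter of Mueller glia. It was at 41.2, 38.3 and 32 RPKM in A/J, at 24.7, 26.3 and 24.7 RPKM in BALB/c and at 29.7, 29.8 and 24.1 RPKM in C57BL/6J. Every A/J library lay above every library of the other 2 strains. The log2 change was 0.47 (SE 0.17, adjusted p = 0.18) for A/J minus BALB/c and 0.52 (SE 0.17, adjusted p = 0.18) for A/J minus C57BL/6J, neither of them called. Without A/J 3 both were called, as were 4463 and 3630 of 12884 genes in the same comparisons. With all 9 libraries, 320 and 348 of 12920 genes were called there. The log2 changes of Slc1a3 without A/J 3 were 0.59 (adjusted p = 0.028) and 0.64 (adjusted p = 0.030). With A/J 1 and A/J 2 left out they were 0.22 and 0.26 (adjusted p = 0.999 and 0.874), and with a correction for GC content the A/J minus BALB/c value was 0.28 (adjusted p = 0.28). BALB/c minus C57BL/6J was 0.04 (SE 0.17, adjusted p = 0.96). Glul and Slc1a3, which act one after the other on glutamate, lay on opposite sides in A/J, and over the 9 libraries their log2 values had a Pearson r of -0.88, a description of libraries that share strain and base composition effects.

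Aqp4, the water channel of glial endfeet, was at 24.5, 24.6 and 11.4 RPKM in A/J, at 11.9, 11.8 and 11.6 RPKM in BALB/c and at 16.3, 14.5 and 10.9 RPKM in C57BL/6J. A/J 1 and A/J 2 stood above all other libraries, and A/J 3 lay below all BALB/c libraries. The log2 change was 0.61 (SE 0.30, adjusted p = 0.27) for A/J minus BALB/c and 0.57 (SE 0.30, adjusted p = 0.33) for A/J minus C57BL/6J. Without A/J 3 both were called, as were 4463 and 3630 of 12884 genes in the same comparisons. The log2 changes of Aqp4 were then 0.98 (adjusted p = 0.013) and 0.94 (adjusted p = 0.019). Without A/J 1 and A/J 2, which leaves 1 A/J library, they were -0.15 and -0.20, the opposite sign. Omitting A/J 1 alone or C57BL/6J 3 alone gave 0.38 or 0.35 for A/J minus C57BL/6J. Aqp4 has the lowest transcript GC content of the 10 genes, 41.4%, where the median gene has 50.1%. With a correction for GC content the values were 0.25 for A/J minus BALB/c and 0.27 for A/J minus C57BL/6J (adjusted p = 0.47 and 0.40).

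Kcnj10 encodes Kir4.1, the potassium channel through which Mueller glia take up and release potassium. It was at 10.1, 8.56 and 9.28 RPKM in A/J, at 8.80, 10.2 and 8.90 RPKM in BALB/c and at 7.04, 6.53 and 5.73 RPKM in C57BL/6J. Both albino strains lay above C57BL/6J without overlap and overlapped each other. The log2 change was 0.61 (SE 0.15, adjusted p = 0.085) for A/J minus C57BL/6J and 0.67 (SE 0.15, adjusted p = 0.052) for BALB/c minus C57BL/6J, close to the threshold but not called. Without A/J 3 both were called, as were 3630 and 630 of 12884 genes in the same comparisons. The log2 changes of Kcnj10 were then 0.62 (adjusted p = 0.031) and 0.67 (adjusted p = 0.042). With a correction for GC content they were 0.57 (adjusted p = 0.051) and 0.66 (adjusted p = 0.025), the second of them called. BALB/c minus C57BL/6J was called in 4 of the 20 other ways of processing, also with a plain prior (adjusted p = 0.049). A/J minus BALB/c was -0.06 (SE 0.15, adjusted p = 0.81).

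Abca8a, a lipid transporter of the ABC family used as a Mueller marker in mouse, was the resting gene with a called difference. It was at 16.8, 19.6 and 14.5 RPKM in A/J, at 10.2, 8.51 and 8.83 RPKM in BALB/c and at 17.4, 15.5 and 14.8 RPKM in C57BL/6J. BALB/c lay below both other strains without overlap, and A/J and C57BL/6J overlapped. The log2 change was 0.78 (SE 0.16, adjusted p = 0.041) for A/J minus BALB/c, a rise. BALB/c minus C57BL/6J was -0.59 (SE 0.16, adjusted p = 0.11) and A/J minus C57BL/6J was 0.19 (SE 0.16, adjusted p = 0.47). BALB/c minus C57BL/6J was called, as lower in BALB/c, in 4 of the 20 other ways of processing: with the GC correction at -0.55 (adjusted p = 0.0081), with values as deposited at -0.76 (adjusted p = 0.030), without A/J 3 at -0.59 (adjusted p = 0.047) and with A/J 3 and C57BL/6J 3 left out together at -0.70 (adjusted p = 0.0024). A/J minus C57BL/6J was 0.31 without A/J 3 and 0.084 without C57BL/6J 3. The call for A/J minus BALB/c held when A/J 3 or C57BL/6J 3 was left out and was lost when any other single library was, with adjusted p from 0.054 to 0.22 in those cases. Its value over all 9 omissions was 0.67 to 0.90, and 0.50 with the GC correction (adjusted p = 0.016). Over all genes, 4463 of 12884 were called without A/J 3 in A/J minus BALB/c, and 630 in BALB/c minus C57BL/6J. No other gene of the 9 measured members of the Abca family was called in any comparison, where 2.48% to 3.09% of all genes were. The neighbour in sequence, Abca8b, shares 2.89% of the 31-base stretches of Abca8a.

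Gfap and Vim form the intermediate filaments that accumulate in reactive glia. Vim was at 344, 296 and 238 RPKM in A/J, at 234, 284 and 274 RPKM in BALB/c and at 274, 261 and 194 RPKM in C57BL/6J. All 3 strains overlapped, and the log2 change was 0.07 (SE 0.22, adjusted p = 0.86) for A/J minus BALB/c, 0.38 (SE 0.22, adjusted p = 0.34) for A/J minus C57BL/6J and 0.31 (SE 0.22, adjusted p = 0.62) for BALB/c minus C57BL/6J. Without C57BL/6J 3, the lowest library, A/J minus C57BL/6J was 0.16 and BALB/c minus C57BL/6J was 0.094. Omitting A/J 1, the highest, gave 0.24 for A/J minus C57BL/6J. Vim is also abundant in lens, fibroblasts and vessels. Of 9 measured genes of intermediate filaments and their linkers, none was called in any comparison, where 2.48% to 3.09% of all genes were. Des, the muscle filament desmin and the most abundant of them after Vim, averaged 32.3 ± 0.768 RPKM in A/J and 33.8 ± 2.04 RPKM in BALB/c, against 37.4 ± 9.38 RPKM in C57BL/6J.

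Gfap was at 55.0, 24.1 and 30.9 RPKM in A/J, at 13.3, 27.1 and 20.8 RPKM in BALB/c and at 23.9, 26.4 and 8.60 RPKM in C57BL/6J. A/J 1 held the highest value and C57BL/6J 3 the lowest, and the other 7 libraries of all strains lay between 13.3 and 30.9 RPKM. The log2 change was 0.73 (SE 0.49, adjusted p = 0.37) for A/J minus BALB/c, 1.05 (SE 0.49, adjusted p = 0.30) for A/J minus C57BL/6J and 0.32 (SE 0.49, adjusted p = 0.87) for BALB/c minus C57BL/6J. Without A/J 1 the A/J minus C57BL/6J value was 0.71, and without C57BL/6J 3 it was 0.50. The A/J minus BALB/c value was 0.39 without A/J 1 and 0.46 without BALB/c 1. Without C57BL/6J 3 the BALB/c minus C57BL/6J value was -0.24, and omitting any 1 of the other libraries left it between 0.083 and 0.64. As a share of Glul in the same library, which does not depend on scaling, Gfap was 36.5%, 12.1% and 17.0% in A/J. It was 6.09%, 12.6% and 10.1% in BALB/c, against 10.8%, 13.8% and 2.47% in C57BL/6J. Glul itself was lower in every A/J library than in every BALB/c library.

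Gfap moved from library to library with genes of oligodendrocytes, the myelinating cells that lie in the optic nerve and not in the mouse retina. Mbp, the myelin basic protein, was at 433, 125 and 138 RPKM in A/J, at 79.6, 144 and 96.5 RPKM in BALB/c and at 86.7, 146 and 20.8 RPKM in C57BL/6J. Olig1, a transcription factor of the same lineage, was at 6.38, 1.60 and 2.49 RPKM in A/J, at 0.98, 2.29 and 1.72 RPKM in BALB/c and at 1.65, 2.55 and 0.05 RPKM in C57BL/6J. Both genes, like Gfap, were highest in A/J 1 and lowest in C57BL/6J 3. Olig1 and Prr18 were the 2 genes most like Gfap over the 9 libraries among 10900 genes compared, each with a Pearson r of 0.99. Of 11 myelin and oligodendrocyte genes, 10 were listed and 9 tested. None was called in any comparison, where 2.48% to 3.09% of all genes were. Their summed level ranged from 359 to 895 RPKM in A/J, from 291 to 393 RPKM in BALB/c and from 343 to 382 RPKM in C57BL/6J. Mal, a membrane protein of myelin and of epithelia, made up most of that sum in C57BL/6J 3, at 346 RPKM. Olig2 was listed at 0 in C57BL/6J 3. Astrocytes of the optic nerve also make Gfap, and the part of nerve tissue in the Gfap values was not tested.

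**Figure D3:**
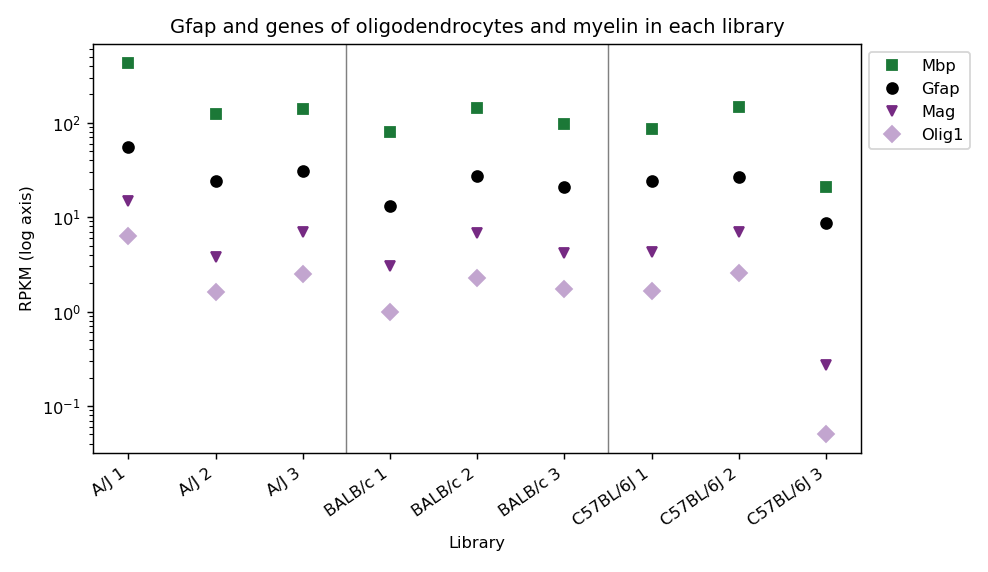
RPKM on a log axis of Gfap (black circles) and of the oligodendrocyte and myelin genes Mbp, Mag and Olig1 in each of the 9 libraries, with grey lines between strains. All 4 genes are highest in A/J 1 and lowest in C57BL/6J 3, where Gfap is at 8.60 RPKM and Mbp at 20.8 RPKM.

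Astrocyte genes other than Gfap were not called in any comparison, where 2.48% to 3.09% of all genes were. Of 10 such genes 9 were listed and tested, with median log2 changes of -0.04 for A/J minus C57BL/6J, -0.24 for BALB/c minus C57BL/6J and 0.26 for A/J minus BALB/c. The 2 most abundant were Aldoc, a glycolytic enzyme, at 272 ± 26.8 RPKM in A/J and 241 ± 20.5 RPKM in BALB/c, against 241 ± 44.7 RPKM in C57BL/6J, and the gap junction gene Gja1 at 109 ± 32.2, 75.1 ± 1.45 and 74.2 ± 20.6 RPKM in the same order of strains (SD, n = 3 each).

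Edn2, endothelin 2, is a secreted peptide that injured photoreceptors of mice make and that acts on endothelin receptors of Mueller glia. It was at 4.49, 4.16 and 8.31 RPKM in A/J, at 0.89, 0.84 and 0.71 RPKM in BALB/c and at 2.64, 1.11 and 2.83 RPKM in C57BL/6J. The strains did not overlap, in the order A/J, C57BL/6J, BALB/c. Edn2 rose in A/J relative to BALB/c by 2.13 on the log2 scale (SE 0.30, adjusted p = 0.0066), and the means, 5.65 ± 2.31 RPKM in A/J and 0.813 ± 0.0929 RPKM in BALB/c (SD, n = 3 each), stood in a ratio of 6.95. A/J minus C57BL/6J was 1.30 (SE 0.30, adjusted p = 0.059) and BALB/c minus C57BL/6J was -0.84 (SE 0.30, adjusted p = 0.23), so the neighbours in that order were not separated by the test. The A/J rise over BALB/c remained called in 19 of 20 other ways of processing and lost the call without BALB/c 3, where it was 2.07 (adjusted p = 0.053). Without A/J 1 and A/J 2 it was 2.67 (adjusted p = 0.039), and with a correction for GC content 2.41 (adjusted p = 0.0014). The A/J minus C57BL/6J difference passed the threshold in 5 of the 20. Among them were the GC correction at 1.54 (adjusted p = 0.0096) and the omission of A/J 3 at 1.02 (adjusted p = 0.030). Without A/J 3, 3630 of 12884 genes were called in that comparison.

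Set against Glul in the same library, Edn2 kept the same order of strains. It was 2.98%, 2.09% and 4.58% of Glul in A/J and 0.408%, 0.390% and 0.343% in BALB/c, against 1.19%, 0.581% and 0.814% in C57BL/6J. The 3 strains did not overlap on this ratio either. Glul itself was lower in every A/J library (151 to 199 RPKM) than in every BALB/c library (207 to 218 RPKM). This widens the gap between these strains on the ratio.

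The rest of the endothelin system held no called gene. Of 9 genes 7 were listed and tested. Edn2 was the 1 gene called, in the A/J minus BALB/c comparison, where 2.48% of all genes were. The other ligand genes Edn1 and Edn3 averaged 2.21 ± 0.881 and 20.6 ± 4.18 RPKM in A/J and 1.46 ± 0.275 and 19.5 ± 2.80 RPKM in BALB/c, against 2.597 ± 0.991 and 20.2 ± 3.47 RPKM in C57BL/6J. The receptor gene Ednrb averaged 26.9 ± 4.69 RPKM in A/J and 26.5 ± 1.12 RPKM in BALB/c, against 22.3 ± 4.96 RPKM in C57BL/6J, and the second receptor gene, Ednra, 2.69 ± 0.366, 2.67 ± 0.161 and 2.87 ± 0.376 RPKM. Per length, Edn3 was therefore the most abundant endothelin transcript in each strain, and Edn2 lay above Edn1 in A/J and below it in BALB/c and C57BL/6J by mean, with Edn1 and Edn2 within an SD of each other in C57BL/6J.

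Bcl3, an atypical IkB protein that joins NF-kB subunits in the nucleus and turns on or represses their targets, ran the other way. It was at 1.96, 1.89 and 1.83 RPKM in A/J, at 2.85, 3.81 and 4.01 RPKM in BALB/c and at 3.04, 3.47 and 3.79 RPKM in C57BL/6J. The 3 A/J libraries lay close together and below every library of the other strains, which overlapped each other. Bcl3 fell in A/J relative to BALB/c by 0.81 on the log2 scale (SE 0.15, adjusted p = 0.024). A/J minus C57BL/6J was -0.62 (SE 0.15, adjusted p = 0.074) and BALB/c minus C57BL/6J was 0.19 (SE 0.15, adjusted p = 0.66). Bcl3 has the highest transcript GC content of the 10 genes, 62.6%. With a correction for GC content the A/J minus BALB/c value was -0.32 (adjusted p = 0.55), and without A/J 1 and A/J 2, the libraries poor in GC-rich transcripts, it was -0.89 (adjusted p = 0.24). Omitting A/J 1, A/J 2, BALB/c 2 or BALB/c 3 also ended the call, with values of -0.73 to -0.85 and adjusted p from 0.090 to 0.16. The A/J minus C57BL/6J value was called, as lower in A/J, with values as deposited at -0.71 (adjusted p = 0.044), without A/J 3 at -0.59 (adjusted p = 0.034) and with A/J 3 and C57BL/6J 3 left out together at -0.57 (adjusted p = 0.020), and was -0.19 with the GC correction (adjusted p = 0.68). Over all genes, 3630 of 12884 were called in A/J minus C57BL/6J without A/J 3. Of 17 genes of the NF-kB pathway, all tested, Bcl3 was the 1 gene called. It was called in A/J minus BALB/c alone, where 2.48% of all genes were. Their median log2 change was -0.21 for A/J minus C57BL/6J, -0.07 for BALB/c minus C57BL/6J and -0.20 for A/J minus BALB/c.

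Over the 9 libraries, the log2 values of Edn2 and Bcl3 had a Pearson r of -0.92 and a Spearman rho of -0.93. This describes libraries of 3 strains and is not a relation within a strain.

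Fgf2, a growth factor of photoreceptors and glia that rises in many models of retinal injury, was at 0.46, 0.41 and 1.33 RPKM in A/J, at 2.19, 1.89 and 2.07 RPKM in BALB/c and at 1.43, 1.55 and 2.44 RPKM in C57BL/6J. Every A/J library lay below every library of the other strains. A/J 3 stood apart from A/J 1 and A/J 2 and close to the lowest C57BL/6J libraries. The log2 change was -1.19 (SE 0.26, adjusted p = 0.051) for A/J minus BALB/c, -0.87 (SE 0.26, adjusted p = 0.15) for A/J minus C57BL/6J and 0.31 (SE 0.26, adjusted p = 0.70) for BALB/c minus C57BL/6J, none of them called. Without A/J 3 the first was -1.50 (adjusted p = 0.0029) and the second -1.19 (adjusted p = 0.0058), both called. In the same comparisons 4463 and 3630 of 12884 genes were then called. The A/J minus BALB/c value of Fgf2 was called in 7 of the 20 other ways of processing. Among them were the omission of C57BL/6J 3 at -1.18 (adjusted p = 0.037) and quantile normalization at -1.06 (adjusted p = 0.049). With the GC correction the first and second were -1.51 (adjusted p = 0.072) and -1.15 (adjusted p = 0.15), not called. Without A/J 1 and A/J 2 they were -0.57 (adjusted p = 0.57) and -0.26 (adjusted p = 0.88). Of the 31-base stretches of Fgf2 transcripts, 8.50% also lie in Nudt6 on the opposite strand, and the labels do not state that the libraries kept strand.

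Of 24 genes of the FGF pathway, 23 were listed and tested. Fgfbp1, which frees FGF proteins from the matrix, was the 1 gene called, in BALB/c minus C57BL/6J, where 3.09% of all genes were. It was at 67.6, 66.0 and 73.3 RPKM in BALB/c and at 49.0, 29.6 and 39.9 RPKM in C57BL/6J, a rise of 1.00 on the log2 scale (SE 0.22, adjusted p = 0.043). The BALB/c libraries lay above all C57BL/6J libraries, yet the call remained in only 2 of the 9 omissions of a single library, without A/J 3 and without C57BL/6J 1, and adjusted p over the 9 reached 0.20. With values as deposited it was 0.82 (adjusted p = 0.090). Fgfbp1 is known from skin and cornea. Of 13 surface epithelium markers, the keratin genes Krt15, Krt13 and Krt4 fell in BALB/c relative to C57BL/6J, where 1.15% of all genes fell. The list's median log2 change was 0.16, with 7 of the 13 above 0. Its summed level was 5509 to 6647 RPKM in BALB/c, against 4599.6 to 7527 RPKM in C57BL/6J. The part of ocular surface tissue in the Fgfbp1 difference was not tested.

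**Figure D4:**
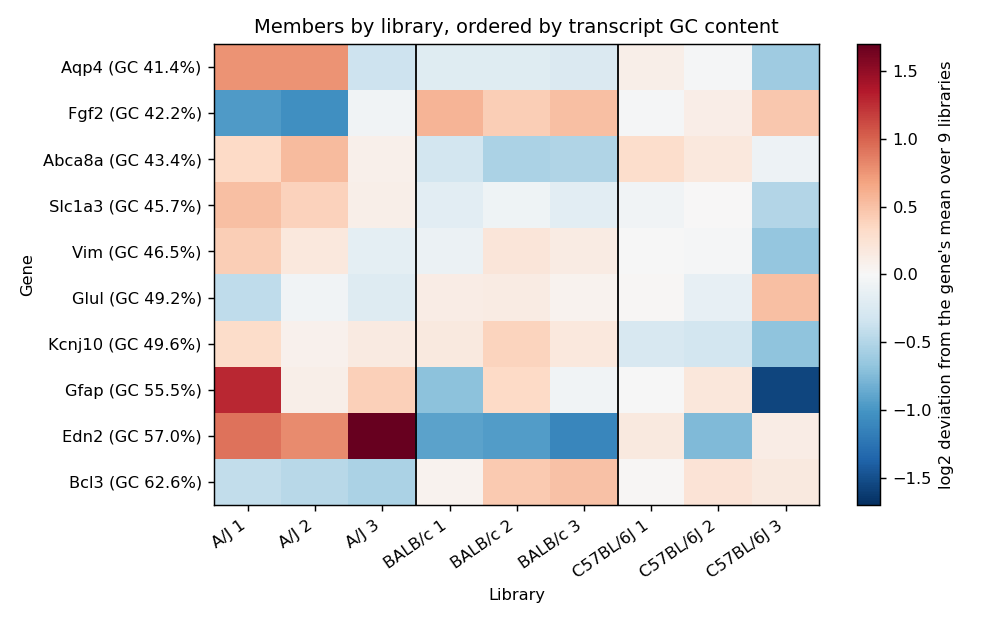
Log2 deviation of each gene from its own mean over the 9 libraries, red above and blue below, with libraries in columns and genes in rows by rising GC content of the transcript, from Aqp4 at 41.4% to Bcl3 at 62.6%. Edn2 is red in all 3 A/J libraries and blue in all 3 BALB/c libraries, Bcl3 is blue in all 3 A/J libraries, and the deepest blue is Gfap in C57BL/6J 3.

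As groups, the 5 resting genes and the 5 stress-response genes held genes of both directions. In a library, the median deviation of the resting genes from their means was 0.35, 0.39 and 0.09 on the log2 scale in A/J and -0.18, -0.07 and -0.18 in BALB/c, against 0.02, -0.01 and -0.50 in C57BL/6J. For the stress-response genes it was 0.42, 0.09 and -0.06 in A/J and -0.10, 0.34 and 0.13 in BALB/c, against 0.00, 0.11 and 0.12 in C57BL/6J. In A/J minus BALB/c the stress-response genes spanned log2 changes from -1.19 for Fgf2 to 2.13 for Edn2, with 3 above 0 and 2 below.

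Receptors and signal carriers upstream of gliosis were measured as well. Of 20 genes of the gp130 and STAT3 pathway, through which cytokines of the LIF and CNTF family act on Mueller glia, 16 were listed and tested. In A/J minus BALB/c 1 of the 16 was called, where 2.48% of all genes were, and none in the other 2 comparisons, where 2.69% and 3.09% of all genes were. The receptor gene Lifr averaged 7.03 ± 0.456 RPKM in A/J and 5.86 ± 0.5001 RPKM in BALB/c, against 7.45 ± 1.41 RPKM in C57BL/6J. Stat3 averaged 18.4 ± 4.38, 16.5 ± 0.699 and 33.1 ± 25.3 RPKM, and its feedback inhibitor Socs3 2.08 ± 0.796, 2.28 ± 0.0462 and 2.71 ± 0.307 RPKM, in the same order of strains. None of these was called. The Stat3 mean in C57BL/6J was set by C57BL/6J 3, at 62.4 RPKM, where C57BL/6J 1 and C57BL/6J 2 were at 18.04 and 18.95 RPKM. Socs1, another feedback inhibitor of cytokine signalling, was at 0.63, 0.98 and 1.30 RPKM in A/J, against 1.75, 2.12 and 2.51 RPKM in BALB/c, a log2 change of -0.91 (SE 0.19, adjusted p = 0.044) without overlap. It was the 1 gene of the list called, and the call was lost with the GC correction, at -0.56 (adjusted p = 0.099), with values as deposited (adjusted p = 0.073), with quantile normalization (adjusted p = 0.054), with a pseudocount of 0.1 (adjusted p = 0.051), with only the 2 strains in the fit (adjusted p = 0.070), and in 7 of the 9 omissions of a single library, the exceptions being A/J 3 and C57BL/6J 3.

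Of 25 genes of glutamate, potassium and water handling, 23 were listed and tested, and 1 was called, in A/J minus C57BL/6J, where 2.69% of all genes were called. Slc1a5, a transporter of glutamine and other neutral amino acids, was at 4.02, 3.83 and 5.04 RPKM in A/J, against 7.22, 8.54 and 8.08 RPKM in C57BL/6J, a log2 change of -0.72 (SE 0.14, adjusted p = 0.027) without overlap. The call was lost with the GC correction, at -0.48 (adjusted p = 0.082), with only the 2 strains in the fit (adjusted p = 0.20), and in 7 of the 9 omissions, the exceptions being A/J 3 and C57BL/6J 3. The second glial glutamate transporter gene, Slc1a2, averaged 14.3 ± 3.28 RPKM in A/J and 16.3 ± 1.32 RPKM in BALB/c, against 17.8 ± 4.55 RPKM in C57BL/6J and was not called.

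Among 28 genes reported in reactive glia of brain or retina, 26 were listed and 25 tested. In A/J minus C57BL/6J 1 rose, in BALB/c minus C57BL/6J 1 rose and 1 fell, and in A/J minus BALB/c 1 rose and 2 fell. Over all genes tested, 2.69%, 3.09% and 2.48% were called in these comparisons. The list's median log2 change was -0.20, -0.06 and 0.14 in the same order.

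Serpina3n, a secreted protease inhibitor and a common marker of reactive astrocytes, was at 20.1, 19.8 and 14.1 RPKM in A/J, at 8.54, 8.99 and 9.60 RPKM in BALB/c and at 33.0, 29.5 and 31.8 RPKM in C57BL/6J. The strains did not overlap, in the order C57BL/6J, A/J, BALB/c. It fell in BALB/c relative to C57BL/6J by 1.57 on the log2 scale (SE 0.16, adjusted p = 0.00092), a call that held in all 20 other ways of processing. It rose in A/J relative to BALB/c by 0.87 (SE 0.16, adjusted p = 0.026), which did not stay called when A/J 1, A/J 2 or 1 of the BALB/c libraries was omitted (0.77 to 0.91, adjusted p 0.12 to 0.14). A/J minus C57BL/6J was -0.69 (adjusted p = 0.065). Other annotated loci hold 21.6% of the 31-base stretches of Serpina3n, a member of a family of close copies, so its level is uncertain and may be split between copies.

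Mt2, a metallothionein that binds zinc and rises in stressed glia, was at 47.7, 45.1 and 56.1 RPKM in A/J, at 99.9, 125 and 131 RPKM in BALB/c and at 87.2, 72.4 and 78.4 RPKM in C57BL/6J. The strains did not overlap, in the order BALB/c, C57BL/6J, A/J. It fell in A/J relative to BALB/c by 1.31 (SE 0.15, adjusted p = 0.0025), a call that held in all 9 omissions of a single library. It rose in BALB/c relative to C57BL/6J by 0.75 (SE 0.15, adjusted p = 0.034), a call kept in 3 of the 9 omissions, those of A/J 2, A/J 3 and BALB/c 1. The replicate block (adjusted p = 0.061), values as deposited (adjusted p = 0.089), quantile normalization (adjusted p = 0.091) and a fit of only the 2 strains (adjusted p = 0.058) also ended it. Hspb1, a small heat shock protein, was at 66.2, 59.5 and 62.8 RPKM in A/J, against 107, 153 and 158 RPKM in BALB/c, a log2 change of -1.19 (SE 0.25, adjusted p = 0.043) without overlap. This call was lost with the GC correction, at -0.73 (adjusted p = 0.30), and with quantile normalization (adjusted p = 0.065), and kept in 3 of the 9 omissions, those of A/J 3, C57BL/6J 2 and C57BL/6J 3. Of the 31-base stretches of these transcripts, 58.1% for Mt2 and 55.4% for Hspb1 also occur at other annotated loci, so both levels are uncertain.

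Igfbp3, a binding protein of insulin-like growth factors, was at 23.1, 24.6 and 20.6 RPKM in A/J, against 12.1, 13.8 and 12.6 RPKM in C57BL/6J. Every A/J library lay above every C57BL/6J library, a rise of 0.91 (SE 0.14, adjusted p = 0.0070). Without A/J 1 it was 0.88 (adjusted p = 0.054), and it remained called in the other 8 omissions. With only the 2 strains in the fit adjusted p was 0.075. Without both A/J 1 and A/J 2, the calls of Serpina3n, Mt2 and Hspb1 in A/J minus BALB/c, of Socs1 in the same comparison, and of Slc1a5 and Igfbp3 in A/J minus C57BL/6J were all lost, with adjusted p from 0.11 to 0.48, and that of Mt2 in BALB/c minus C57BL/6J was lost at 0.056.

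The genes most like each member over the 9 libraries were described by the Pearson r of log2 values, among 10900 genes. Edn2 was most like Ncapd3 and Toe1, with r of 0.95 and 0.94, and 11 genes exceeded 0.9. Bcl3 was most like Mmp14 and Irak4, with r of 0.97 and 0.96. Fgf2 was most like Nhlrc3 and Gpr175, at 0.99 and 0.98, and 275 genes exceeded 0.9. Of the resting genes, Aqp4 was matched above 0.9 by 1130 genes, first Tnfaip8 and Fnta at 0.99 each. Slc1a3 was most like Entpd1 and Tspan2 at 0.98 each, Abca8a most like Slc4a10 and Zmym4 at 0.98 each, and Kcnj10 most like Fads1 and Pgam2 at 0.97 and 0.96. Glul was most like Bach1 and Gtf2a1 at 0.94 and 0.93, and Vim most like Htra1 and Mboat1 at 0.97 each. These likenesses share the 9 libraries, their strains and their base composition effects.

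Of 100 tested markers of other eye tissues, 6 were called in A/J minus C57BL/6J (6.00%), 6 in BALB/c minus C57BL/6J (6.00%) and 5 in A/J minus BALB/c (5.00%), against 2.69%, 3.09% and 2.48% of all genes. Rod markers summed to 13419 to 13816 RPKM in A/J and 14759 to 15568 RPKM in BALB/c, against 14881 to 16851 RPKM in C57BL/6J. Sag, of 12 tested, was higher in A/J than in C57BL/6J. In that comparison 3 of the 12 lay above 0, with a median log2 change of -0.24. Lens markers summed to 123150 to 132810 RPKM in A/J and 163880 to 166860 RPKM in BALB/c, against 84999 to 125250 RPKM in C57BL/6J. Gluld1, of 15 lens markers tested, fell in A/J relative to both other strains, and Cryga rose in BALB/c relative to C57BL/6J. Of the 15, 13 lay above 0 in A/J minus C57BL/6J (median log2 change 0.30) and 3 in A/J minus BALB/c (median -0.38). In BALB/c minus C57BL/6J 15 lay above 0 (median 0.66). Microglial markers summed to 123 to 140.0 RPKM in A/J and 112 to 123 RPKM in BALB/c, against 146 to 157 RPKM in C57BL/6J. C1qb, of 12 tested, fell in A/J and in BALB/c relative to C57BL/6J. Of the 12, 5 and 6 lay above 0 in these comparisons, with median log2 changes of -0.04 and 0.05. Surface epithelium markers Krt15, Krt13 and Krt4 fell in A/J relative to C57BL/6J, and Krt15, Krt13 and Sfn fell in A/J relative to BALB/c. Of 13 tested, 6 and 4 lay above 0 in these comparisons, with median log2 changes of -0.11 and -0.25. Of the muscle and endothelial markers, Mb fell in BALB/c relative to C57BL/6J and Vwf fell in A/J relative to BALB/c. In those comparisons 5 of 11 muscle markers (median log2 change -0.02) and 1 of 9 endothelial markers (median -0.08) lay above 0. Of 10 fibroblast and 9 pigment epithelium markers none was called. The part of these tissues in the levels of the 10 genes was not tested.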

How the data were processed

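Whole-eye poly(A) RNA of A/J, BALB/c and C57BL/6J mice was sequenced in 3 libraries per strain. The tools named in the submitters' processing notes are CASAVA 1.7 and GenomeStudio, with mouse build mm9. How reads were counted and on which gene models is not given in the sources used here. As deposited by the authors, there was 1 table per library with a value per gene, which was taken here as RPKM because values times transcript length, summed over genes, gave 108.5% to 111.7% of the total implied by that unit in 8 libraries, and 126.6% in C57BL/6J 3. Whole reads could not be recovered, since at most 30.6% of values came within 0.1 of a whole read, so depth is unknown and no counting interval is given; summed RPKM, which is not a depth, was 511888 to 599635.

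Size factors by the median-of-ratios method (0.931 to 1.158) scaled each library, and the test ran on log2(scaled RPKM + 0.5). Strains were compared with limma 3.58.1 in R 4.3.3 (trended, robust), with strain as the only term, all 9 libraries in 1 fit, two-sided tests and Benjamini-Hochberg adjustment over 12920 genes. On simulated data, the procedure recovered 52.6% of log2 changes of 1 and 90.6% of changes of 2, and 3.5% of its calls were false. A gene that was not called may therefore still differ between strains. Noise was drawn independently for each gene, without effects shared across a library or tied to GC content. Means and SDs are of deposited RPKM. Size factors, normalization, pseudocount, filter, GC correction, replicate number, strains in the fit and each library's omission were varied, which gave 20 alternatives.

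The members and gene lists were chosen with earlier results of these data known. The rule named all 10 members, up to 4 called genes per pathway list and comparison (or, where a list had none, its 2 with the highest mean), the 2 genes most like each member, and called markers. Genes named beyond it (Rlbp1, Dkk3, Lifr, Stat3, Socs3, Slc1a2, Edn1, Edn3, Ednra, Ednrb, Abca8b, Mbp, Mal and Mag) were chosen after their values were seen. 1 gene of the myelin list is not reported here. GC content and shared 31-base stretches came from GENCODE M21 transcripts of GRCm38, another build than mm9. Promoter windows came from RefSeq and carry no measured values.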

Additional observations from a re-analysis of the deposited data

How the results depend on the processing

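Each of the 30 log2 changes of the 10 genes was recomputed under 20 alternatives, giving 600 values. Of these, 526 kept their direction and their side of the threshold, 16 lost a call, 37 gained one and 21 changed sign, none of the 21 in a called result. The count of members called in A/J minus C57BL/6J was 0, and became 1 with values as deposited, quantile normalization, the GC correction or the replicate block, 6 with A/J 3 and C57BL/6J 3 left out, and 0 to 6 when 1 library was omitted. In BALB/c minus C57BL/6J it was 0, and became 1 with values as deposited or a plain prior, 2 with the GC correction, 3 with A/J 3 and C57BL/6J 3 left out, and 0 to 2 when 1 library was omitted. In A/J minus BALB/c it was 3, and became 1 when A/J 1 and A/J 2 were left out, 7 when A/J 3 and C57BL/6J 3 were, and 0 to 6 when 1 library was omitted. Abca8a and Bcl3 in A/J minus BALB/c stayed called in 11 and 14 of the 20 alternatives, and adjusted p for Abca8a was 0.061 with quantile normalization. Counts over all genes moved under the same settings. Without A/J 3, 6 members were called in A/J minus C57BL/6J, where 3630 of 12884 genes tested were. In A/J minus BALB/c 6 were also called then, where 4463 of 12884 genes were. Without BALB/c 3, 0 were called in A/J minus BALB/c, where 79 of 12889 genes were. Totals with A/J 3 and C57BL/6J 3 left out are given below. The cause of these changes was not tested.

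Changes of sign were as follows. With values as deposited, which shift the median of all genes by -0.17 in BALB/c minus C57BL/6J, Slc1a3 was -0.13 there and Kcnj10 was 0.0047 in A/J minus BALB/c. With the GC correction, Abca8a was -0.047 in A/J minus C57BL/6J, Aqp4 was 0.012 in BALB/c minus C57BL/6J and Vim was -0.095 in A/J minus BALB/c. Omitting 1 library at a time gave, in A/J minus BALB/c, -0.074 to 0.22 for Vim and -0.13 to 0.011 for Kcnj10. In BALB/c minus C57BL/6J it gave -0.16 to 0.17 for Glul, -0.26 to 0.092 for Aqp4, -0.12 to 0.13 for Slc1a3 and -0.24 to 0.64 for Gfap. With A/J 1 and A/J 2 left out, A/J minus C57BL/6J was -0.20 for Aqp4 and -0.062 for Abca8a, and A/J minus BALB/c was -0.15 for Aqp4 and -0.26 for Vim. Without both A/J 3 and C57BL/6J 3, BALB/c minus C57BL/6J was 0.17 for Glul, -0.12 for Slc1a3 and -0.24 for Gfap.

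Whether replicate numbers pair the libraries was not clear from the correlations of their deviations. Between strains, r was 0.337 to 0.537 for libraries numbered 1, -0.515 to 0.021 for number 2 and 0.092 to 0.472 for number 3. Libraries with different numbers had r from -0.666 to 0.602. With the replicate block, Edn2 in A/J minus C57BL/6J (adjusted p = 0.040) and Fgf2 in A/J minus BALB/c (adjusted p = 0.028) were also called, and Mt2 in BALB/c minus C57BL/6J was not (adjusted p = 0.061). Called genes among all tested numbered 348 for A/J minus C57BL/6J, 399 for BALB/c minus C57BL/6J and 320 for A/J minus BALB/c. In the same order there were 5043, 1877 and 7700 with A/J 3 and C57BL/6J 3 left out. There were 126, 395 and 69 with A/J 1 and A/J 2 left out, and 153 to 3630, 149 to 630 and 79 to 4463 when 1 library was omitted. With only the 2 strains compared they were 138, 389 and 427, and with the replicate block 406, 398 and 373. With values as deposited, 156 genes were higher and 225 lower in BALB/c minus C57BL/6J, against 250 and 149. Omitting 2 A/J libraries leaves 1, which is assumed to vary like the other strains. Depth is unknown, so the counting error of values near or under 1 RPKM could not be given. Such values include those of Edn2, Fgf2 and Socs1 and of Olig1, Olig2 and Mag in C57BL/6J 3.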
